A study of Homo sapiens with 18 samples.

Results

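UNC0642, an inhibitor of the histone methyltransferases EHMT2 (G9a) and EHMT1 (GLP), was compared with its DMSO vehicle in the uveal melanoma cell line Mel92.1. The members of the comparison were the 3 libraries labelled Mel92.1 with UNC0642 and the 3 labelled Mel92.1 with DMSO, taken from their labels alone, which made 6 of the 18 libraries of the series. UNC0642 was given at 1 μM for 48 h, and the DMSO cells carried no other treatment. Both groups were the same unmodified line, grown in RPMI with 10% serum, so a result holds for 1 cell line. The series also holds A366, a second EHMT2 inhibitor, and a second uveal melanoma line, MP41, whose 3 DMSO and 3 UNC0642 libraries served here as a comparison.

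EHMT2 and EHMT1 place the mono- and dimethyl marks on lysine 9 of histone H3, a modification found over silenced chromatin, and the loss of their activity is known to release silenced genes. Uveal melanoma arises from melanocytes of the eye, is usually driven by activating changes in Gq proteins, and keeps much of the pigment programme of its cell of origin. The study asked which genes respond to EHMT2 inhibition, with the killing of tumor cells by natural killer (NK) cells in view. The comparison described here asks how the transcriptome of Mel92.1 as a whole differed after UNC0642.

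The deposited table gave expected counts for 26475 gene symbols. The totals were 37931253 to 49510673 counts in the DMSO libraries, and 23601156, 41475256 and 62941462 in UNC0642 replicates 1, 2 and 3. UNC0642 replicate 1 stood apart: ribosomal RNA genes took 32.8% of its counts, against 6.50% to 12.5% with DMSO and 10.1% and 19.5% in the other UNC0642 libraries, and 1285 of the tested genes had no count in it, against 8 to 46 in each of the other 5. The counts of calls and the values of the gene lists are therefore also given without this library. The line was checked with genes of 1 line only, 20 at 20 CPM (counts scaled to library size and TMM factor) or more in every Mel92.1 DMSO library and at 0.05 CPM or less in those of MP41, and 21 with the opposite pattern. The Mel92.1 genes stood at 88.4% to 104% of their DMSO level in the UNC0642 libraries. The MP41 genes stood at 0.432%, 0.052% and 0.0938% of their level in MP41 in UNC0642 replicates 1 to 3, against at most 0.00891% in the DMSO libraries. These genes were chosen by their low readings in the DMSO libraries, so the DMSO value is no control for the UNC0642 libraries. Whether the UNC0642 values come from MP41 RNA was not tested. In the Mel92.1 A366 group, the libraries with replicate numbers 2 and 3 held the MP41 genes at 115% and 121% and were left out.

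In the Mel92.1 cells, 36 genes were higher and 6 were lower with UNC0642 when 14164 genes were tested with edgeR (quasi-likelihood F test, Benjamini-Hochberg adjusted p under 0.05, the threshold throughout). That was 0.297% of the genes tested, 0.254% higher and 0.0424% lower. NOX5, a calcium-activated NADPH oxidase, MKI67, the proliferation antigen Ki-67, and ZC3H13, a subunit of the complex that places N6-methyladenosine on RNA, had the largest rises. OLFML2A, a secreted olfactomedin-like protein, and HSPB7, a small heat shock protein, had the largest falls. In all 42 genes the 3 UNC0642 libraries lay on one side of the 3 DMSO libraries, which was so for 2202 (15.5%) of the genes tested. At an unadjusted p under 0.05 stood 843 genes (5.95%), 531 higher and 312 lower. Without UNC0642 replicate 1, 40 genes were higher and 7 lower (0.325% of 14460 genes), and 28 of these 47 were among the 42. The number of calls rested on the control libraries too, with 2 calls left without DMSO replicate 2, 4 without DMSO replicate 3 and 18 without DMSO replicate 1. It was 4 without UNC0642 replicate 2 and 11 without UNC0642 replicate 3. With library size as the only scaling, 4 genes were called, 2 higher and 2 lower, and the median of all genes tested moved to -0.23 from -0.02 on the log2 scale.

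ZC3H13 had the smallest p-value. It was read at 68.7, 70.1 and 68.8 CPM with DMSO and 289, 248 and 252 CPM with UNC0642 (log2 fold change 1.93, SE 0.08, adjusted p 0.000189), so that its DMSO libraries hardly differed and all UNC0642 libraries were far above them. MKI67 was read at 14.6, 11.7 and 11 CPM with DMSO and 60.02, 63.4 and 83.5 CPM with UNC0642 (log2 fold change 2.47, SE 0.17, adjusted p 0.00266). For NOX5, 0.383, 0.38 and 0.413 CPM with DMSO and 3.84, 3.79 and 3.44 CPM with UNC0642 were measured (log2 fold change 3.22, SE 0.36, adjusted p 0.02), and its 3 libraries of each group lay close together. The NOX5 values rest on 16 to 21 counts per library with DMSO and on 71 to 208 with UNC0642. These genes lie at chr13:45954465-46052759, minus strand (ZC3H13), chr10:128096659-128126385, minus strand (MKI67) and chr15:68930525-69062743, plus strand (NOX5), in the GRCh38 build with GENCODE 29.

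**Figure D1:**
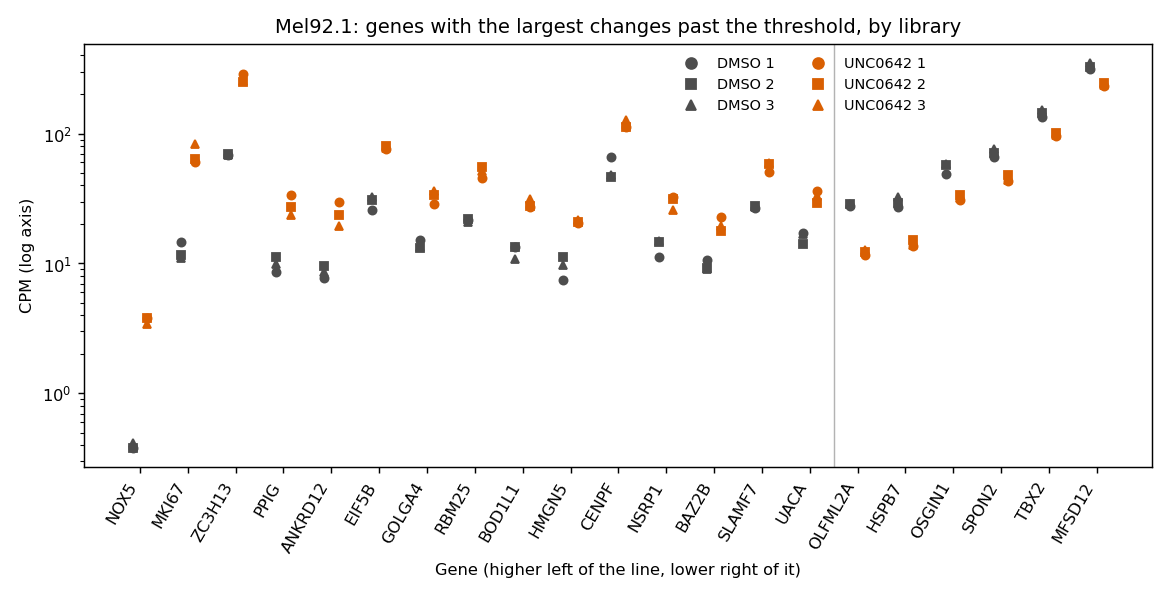
CPM on a log axis for the 15 largest rises and the 6 falls past the threshold, with grey symbols for the 3 DMSO libraries and orange for the 3 UNC0642 libraries of Mel92.1 (symbol shape is the replicate). In each gene the orange and grey symbols do not overlap, from NOX5 at 0.38 to 0.413 CPM with DMSO and 3.44 to 3.84 CPM with UNC0642, to MFSD12 at 311 to 348 CPM and 233 to 245 CPM.

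RBM25, PPIG, NSRP1, LUC7L3, PRRC2C and EIF5B are placed together here by their known roles in splicing, RNA binding or translation, a grouping made after their values were seen and not counted against a list. RBM25, a splicing regulator, was read at 21.8, 22 and 20.7 CPM with DMSO and 45.7, 55.8 and 51.2 CPM with UNC0642 (log2 fold change 1.24, SE 0.11, adjusted p 0.00764). PPIG, a nuclear cyclophilin that binds splicing factors, was read at 8.62, 11.2 and 9.87 CPM with DMSO and 33.4, 27.1 and 23.5 CPM with UNC0642 (log2 fold change 1.5, SE 0.17, adjusted p 0.0201). NSRP1, a splicing regulator of nuclear speckles, stood at 13.6 ± 2.02 CPM with DMSO and 29.9 ± 3.74 CPM with UNC0642 (mean ± SD, n = 3; log2 fold change 1.14, SE 0.16, adjusted p 0.0388). In none of these did the groups overlap. LUC7L3, a protein of the U1 snRNP environment, rose by 1.01 on the log2 scale, and PRRC2C, an RNA-binding protein of stress granules, by 1.00 (adjusted p 0.0105 and 0.00266). EIF5B, the GTPase that joins the ribosomal subunits at the end of initiation, was read at 25.6, 30.7 and 32.6 CPM with DMSO and 76.6, 80.7 and 77.2 CPM with UNC0642 (log2 fold change 1.40, SE 0.11, adjusted p 0.00488).

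ATRX, BAZ2B, HMGN5, CENPF, SMC4 and BOD1L1 have known roles on chromatin or chromosomes and were grouped in the same way. ATRX, a remodeller of heterochromatin, rose by 0.82 on the log2 scale (adjusted p 0.0293), BAZ2B, a bromodomain protein, by 1.06 (adjusted p 0.0393) and HMGN5, which binds nucleosomes, by 1.16 (adjusted p 0.045). CENPF, a kinetochore protein, was read at 65.9, 46.4 and 47.6 CPM with DMSO and 113, 113 and 128 CPM with UNC0642 (log2 fold change 1.15, SE 0.14, adjusted p 0.0293). SMC4, a condensin subunit, rose by 0.55 on the log2 scale (adjusted p 0.048). BOD1L1, which protects replication forks, stood at 12.6 ± 1.49 CPM with DMSO and 28.7 ± 2.21 CPM with UNC0642 (log2 fold change 1.18, SE 0.13, adjusted p 0.02). CENPF, HMGN5 and SMC4 kept their direction without UNC0642 replicate 1, with adjusted p of 0.0501, 0.0534 and 0.0884.

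The remaining large rises were of varied kinds. GOLGA4, a golgin of the trans-Golgi network, was read at 15.1, 13.2 and 13.4 CPM with DMSO and 28.6, 33.8 and 36.3 CPM with UNC0642 (log2 fold change 1.25, SE 0.13, adjusted p 0.0148). ANKRD12, an ankyrin repeat protein of the nucleus, stood at 8.63 ± 0.936 CPM with DMSO and 24.2 ± 5.12 CPM with UNC0642 (log2 fold change 1.48, SE 0.18, adjusted p 0.0271) and UACA, a coiled-coil protein, at 16.1 ± 1.63 CPM with DMSO and 32.8 ± 3.38 CPM with UNC0642 (log2 fold change 1.02, SE 0.13, adjusted p 0.0293). Among abundant genes, HSP90AA1, the inducible cytosolic HSP90, rose by 0.50 and IDH1, the cytosolic isocitrate dehydrogenase, by 0.59 on the log2 scale (adjusted p 0.0246 and 0.0105). Lysosomal genes were present as well, CTSL, the protease cathepsin L, at 183, 199.7 and 212 CPM with DMSO and 352, 314 and 297 CPM with UNC0642 (log2 fold change 0.69, SE 0.09, adjusted p 0.0308), and GM2A, the activator protein of ganglioside breakdown, with a log2 fold change of 0.61 (adjusted p 0.0302). Of the 25 autophagy and lysosome genes tested, CTSL was the one past the threshold, and their median was -0.0074, beside -0.020 over all genes tested (0.044 beside -0.0096 without UNC0642 replicate 1, where CTSL was again the one past the threshold).

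All 6 genes that fell had narrow replicate spreads. OLFML2A was read at 27.7, 28.5 and 28.6 CPM with DMSO and 11.7, 12.2 and 12.8 CPM with UNC0642 (log2 fold change -1.21, SE 0.11, adjusted p 0.00779), and HSPB7 at 27.2, 29 and 32.3 CPM with DMSO and 13.6, 15.2 and 13.8 CPM with UNC0642 (log2 fold change -1.06, SE 0.12, adjusted p 0.02). OSGIN1, a growth inhibitor induced by oxidative stress, was read at 49.2, 57.6 and 58 CPM with DMSO and 30.9, 33.8 and 31.7 CPM with UNC0642 (log2 fold change -0.77, SE 0.10, adjusted p 0.0317). The 3 genes had no overlap between the groups, and OLFML2A was the lowest relative to its DMSO level. SPON2, a secreted matrix protein, fell by 0.66 on the log2 scale, TBX2, a T-box transcription factor of the melanocyte lineage, by 0.54, and MFSD12, a cysteine transporter of melanosomes, by 0.47 (adjusted p 0.045, 0.045 and 0.0487). Without UNC0642 replicate 1 these last 3 kept their direction, with adjusted p of 0.0678, 0.0804 and 0.0956.

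The genes that rose shared a feature of their coding sequences, which was noticed after their values were seen and is given as a description. Adenine made up a median of 36.7% of the bases of their longest coding sequences, against 25.7% over the 12862 tested genes with a coding sequence in the annotation, and 26 of the 36 were among the 5% of genes richest in adenine. Purines together made up 60.8%, against 52.5%. The coding sequences were also long, with a median of 3279 bases against 1434. The 6 genes that fell had a median of 17.8% adenine and all lay below the median gene. NOX5 (20.3% adenine) and SLAMF7 (27.4%) were among the 10 genes that rose from outside the 5%. The stretches below are the 90 coding bases richest in adenine within 1 exon of 4 genes that rose and 1 that fell, printed 5′ to 3′ on the coding strand with adenine in capitals, to show how dense the adenine of the first kind is.
ZC3H13, chr13:46003162-46003251, minus strand, exon 8 of 19, bases 832 to 921 of the coding sequence: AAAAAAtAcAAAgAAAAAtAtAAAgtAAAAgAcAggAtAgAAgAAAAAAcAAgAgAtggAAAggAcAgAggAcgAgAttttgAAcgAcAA
EIF5B, chr2:99363650-99363739, plus strand, exon 5 of 24, bases 925 to 1014 of the coding sequence: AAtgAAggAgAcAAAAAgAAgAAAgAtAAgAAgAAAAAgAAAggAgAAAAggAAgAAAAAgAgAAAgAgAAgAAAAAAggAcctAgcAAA
RBM25, chr14:73110863-73110952, plus strand, exon 15 of 19, bases 1725 to 1814 of the coding sequence: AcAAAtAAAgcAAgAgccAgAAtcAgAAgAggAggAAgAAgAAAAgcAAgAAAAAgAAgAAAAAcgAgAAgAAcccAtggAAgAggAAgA
PPIG, chr2:169630897-169630986, plus strand, exon 10 of 14, bases 671 to 760 of the coding sequence: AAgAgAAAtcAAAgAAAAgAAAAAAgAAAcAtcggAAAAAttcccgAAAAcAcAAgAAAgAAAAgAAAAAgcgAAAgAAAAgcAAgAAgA
OLFML2A, chr9:124801419-124801508, plus strand, exon 5 of 8, bases 675 to 764 of the coding sequence: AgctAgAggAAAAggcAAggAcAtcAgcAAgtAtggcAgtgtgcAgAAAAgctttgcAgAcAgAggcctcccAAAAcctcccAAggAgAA
In these stretches adenine made up 58.9% of the bases in ZC3H13, 65.6% in EIF5B, 57.8% in RBM25 and 65.6% in PPIG, against 37.8% in OLFML2A, even at its richest.

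The same tilt was seen in the medians when all genes were ordered by the adenine content of the coding sequence. In the 129 genes of the top 1% (38.3% adenine or more) the median log2 fold change was 0.35, and in 66 of them (51.2%) all UNC0642 libraries were above all DMSO libraries, against 7.57% of all 12862. With library size as the only scaling, which lowered all genes, this median was 0.13. With TMM factors the median was 0.15 in the next 1%, 0.12 between the 95th and 98th percentiles, 0.059 between the 90th and 95th and -0.066 in the lowest 25% of genes. In the top 1% the medians of the 3 UNC0642 libraries against the DMSO mean were 0.38, 0.28 and 0.30, and those of the DMSO libraries 0.0036, 0.034 and -0.031, so the groups did not overlap. In every group of genes below the 98th percentile the libraries overlapped. In the lowest 25% the medians were -0.086 to 0.063 with DMSO and -0.109 to -0.0092 with UNC0642. Between the 75th and 98th percentiles DMSO replicate 1 was above at least 1 of the UNC0642 libraries. Within the top 5% the median rose with the length of the coding sequence, from 0.11 in the 292 genes of up to 1500 bases to 0.45 in the 99 genes of 3000 to 6000 bases and 0.58 in the 25 longer ones. With UNC0642 replicate 1 left out, the top 1% had a median of 0.32. In MP41 the same 129 genes had a median of 0.0058. Across the 12862 genes, Spearman's rho between adenine content and log2 fold change was 0.18 in Mel92.1, 0.29 without UNC0642 replicate 1 and -0.11 in MP41, where the points share libraries and base composition.

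**Figure D2:**
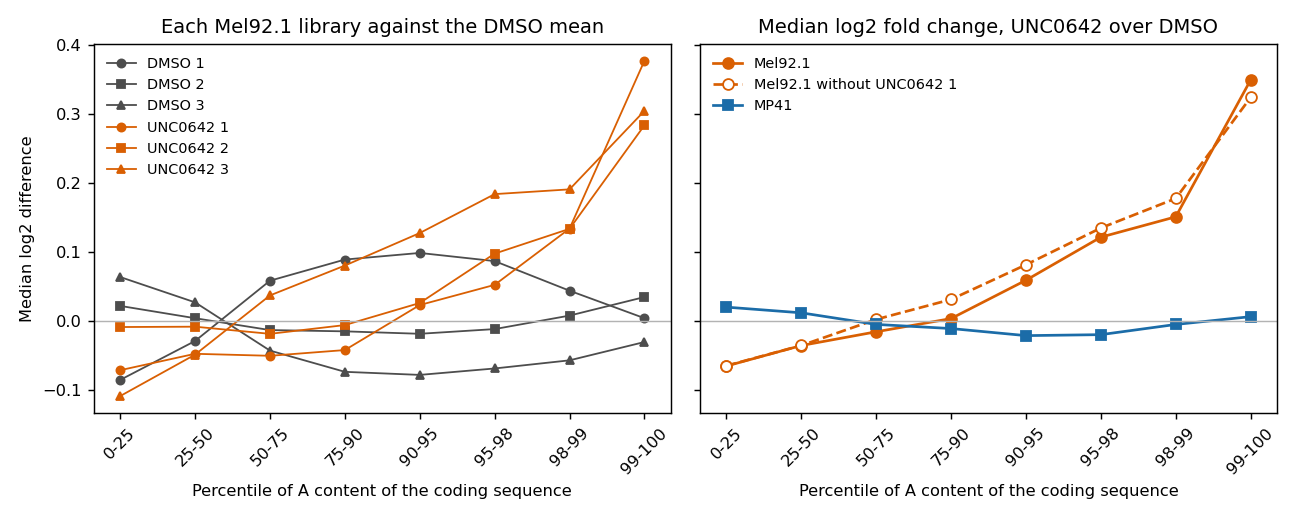
Median log2 difference over tested genes grouped by the percentile of adenine content of their coding sequence. The left panel shows each Mel92.1 library against the mean of the DMSO libraries (grey, DMSO; orange, UNC0642), and the right panel the fitted log2 fold change of UNC0642 over DMSO in Mel92.1, in Mel92.1 without UNC0642 replicate 1 and in MP41. The Mel92.1 lines rise to 0.35 and 0.32 in the top 1% and the MP41 line stays near 0.

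Other libraries give the level of these genes elsewhere. In MP41 with DMSO, 33 of the 36 genes that rose were higher than in Mel92.1 with DMSO, with a median log2 ratio of 1.67, against -0.070 over all genes tested. ZC3H13, for instance, stood at 1012 CPM in MP41 with DMSO and MKI67 at 415 CPM. In A366 replicate 1 of Mel92.1, whose Mel92.1 genes stood at 105% of their DMSO level, all 36 were above the Mel92.1 DMSO mean. Their median log2 difference was 0.51 there, against -0.0048 over all genes tested. This rests on 1 library and on the DMSO libraries that also served to choose the 36. Read as a share of MP41 RNA, which was not tested, the line check would correspond to a part of the rise of the 36 genes. In UNC0642 replicate 1 this part had a median of 1.91% and was at most 7.78% (TYR). The medians were 0.242% and 0.457% in replicates 2 and 3. The lines themselves differed along adenine content without any inhibitor, since the median log2 ratio of MP41 over Mel92.1 with DMSO was 0.89 in the top 1% and -0.48 in the lowest 25%. When an offset for adenine content and coding length was put into the fit, 7 genes stayed past the threshold, all among the 42: MKI67, NOX5, RBM25, SLAMF7, ZC3H13, HSPB7 and OLFML2A, and all 36 kept their direction. Their median log2 fold change was 0.68 with the offset and 0.94 without it, and in 13 of them it shrank by more than 1.5 times, as in GOLGA4 (from 1.25 to 0.23), SMC4 (from 0.55 to 0.15) and CENPF (from 1.15 to 0.41). The offset was estimated from the same 6 libraries, so it also takes out any group difference that follows adenine content and coding length. Smaller changes in genes rich in adenine are therefore built into it, whatever their source. The offset also moved the median of all genes in that fit to 0.092, from -0.017 for the same genes without it. A kept positive direction therefore includes this shift. The part of the base composition of the libraries in the result was not tested.

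The study listed 8 genes as raised by both inhibitors in both lines, and since the list was chosen on these libraries, its direction is no independent evidence. All 8 had positive log2 fold changes, with a median of 1.02 beside -0.020 over all genes tested. NOX5 and SLAMF7 were past the threshold. SLAMF7, a surface receptor of the SLAM family, was read at 26.8, 27.6 and 27 CPM with DMSO and 50.9, 58 and 59.5 CPM with UNC0642 (log2 fold change 1.05, SE 0.10, adjusted p 0.0094). AZGP1, the secreted zinc-alpha-2-glycoprotein, was read at 0.529, 1.04 and 0.78 CPM with DMSO and 6.7, 3.82 and 3.38 CPM with UNC0642 (log2 fold change 2.55, SE 0.43, adjusted p 0.0964), and BANCR, a long noncoding RNA, at 0.529, 0.427 and 0.826 CPM with DMSO and 2.43, 3.13 and 1.97 CPM with UNC0642 (log2 fold change 2.07, SE 0.46, adjusted p 0.281). Both had all UNC0642 libraries above all DMSO libraries but missed the threshold.

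The other 4 of the 8 depended on UNC0642 replicate 1. SERPINA1, the alpha-1-antitrypsin gene, was read at 1.57, 1.31 and 1.47 CPM with DMSO and 0.918, 4 and 3.63 CPM with UNC0642 (log2 fold change 0.99, SE 0.53, adjusted p 0.865). LINC00426 was read at 5.17, 5.2 and 6.45 CPM with DMSO and 3.94, 12 and 11.2 CPM with UNC0642 (log2 fold change 0.71, SE 0.38, adjusted p 0.865) and BST2, the antiviral tetherin, at 0.566, 0.76 and 0.872 CPM with DMSO and 0.648, 1.93 and 1.37 CPM with UNC0642 (log2 fold change 0.86, SE 0.57, adjusted p 0.865). In SERPINA1 and LINC00426 replicate 1 was below every DMSO library while the other UNC0642 libraries were above them. KRT23, a type I keratin, showed the opposite, at 1.9, 2.37 and 2.69 CPM with DMSO and 5.56, 2.99 and 3.06 CPM with UNC0642 (log2 fold change 0.73, SE 0.35, adjusted p 0.858), with its highest value in replicate 1. Without that library 5 of the 8 were past the threshold, NOX5 and SLAMF7 joined by AZGP1 (2.21, adjusted p 0.0464), SERPINA1 (1.39, adjusted p 0.0464) and LINC00426 (1.05, adjusted p 0.0466), while BANCR, KRT23 and BST2 had adjusted p of 0.0917, 0.721 and 0.317.

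The transcripts of the inhibited enzymes showed no call. EHMT2 was read at 94.6, 94.9 and 97.1 CPM with DMSO and 68.9, 91 and 90.7 CPM with UNC0642 (log2 fold change -0.19, SE 0.11, adjusted p 0.865) and EHMT1 at 83.9, 75.1 and 72.8 CPM with DMSO and 86.7, 70.01 and 73.5 CPM with UNC0642 (log2 fold change -0.012, SE 0.11, adjusted p 0.985). Since UNC0642 acts on the enzymes and not on their transcripts, these levels do not check the labels. Of 19 H3K9 methyltransferases, partners and readers tested, 0 passed the threshold, and 1 was higher and 1 lower at an unadjusted p under 0.05, where 3.75% of all genes tested were higher and 2.20% lower. These were MPHOSPH8, a reader of methylated H3K9 in the HUSH complex, at 49.99, 59.8 and 63.6 CPM with DMSO and 94.3, 86.2 and 81.5 CPM with UNC0642 (log2 fold change 0.60, SE 0.11, adjusted p 0.135), and MORC2, an ATPase that works with HUSH, at 48.6, 45.4 and 47.6 CPM with DMSO and 36.1, 39.8 and 40.04 CPM with UNC0642 (log2 fold change -0.29, SE 0.09, adjusted p 0.595). The list's median was -0.012, and without UNC0642 replicate 1 it was -0.056, again with 0 past the threshold and 1 higher and 1 lower at an unadjusted p under 0.05.

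On the lists of NK ligands, MHC class I, TGF-beta and interferon genes, no gene passed the threshold. SLAMF7, the surface receptor described above, is on none of these lists and was past the threshold (log2 fold change 1.05, adjusted p 0.0094). Of 14 ligands of NK activating receptors, 10 were tested, 0 passed the threshold and 0 reached an unadjusted p under 0.05, and their median was -0.056 (-0.087 without UNC0642 replicate 1, also with 0 and 0). Among the NKG2D ligands, MICA was read at 43.9, 52 and 50.3 CPM with DMSO and 52.4, 50.2 and 45.8 CPM with UNC0642 (log2 fold change 0.021, SE 0.10, adjusted p 0.972) and MICB at 5.71, 5.96 and 5.46 CPM with DMSO and 4.54, 6.35 and 4.39 CPM with UNC0642 (log2 fold change -0.16, SE 0.22, adjusted p 0.896). ULBP2 was read at 2.81, 3.3 and 3.65 CPM with DMSO and 2.97, 3.66 and 4.12 CPM with UNC0642 (log2 fold change 0.15, SE 0.27, adjusted p 0.925), and ULBP3 at 0.329, 0.285 and 0.229 CPM with DMSO and 0.864, 0.322 and 0.43 CPM with UNC0642 (log2 fold change 0.89, SE 0.72, adjusted p 0.867). The groups overlapped in all 4. ULBP1, RAET1E, RAET1G and RAET1L were under the filter, at no more than 0.184 CPM in any library. TGFB1, the transforming growth factor beta 1 gene, was read at 30.1, 35.9 and 35.2 CPM with DMSO and 29.2, 31.4 and 29.4 CPM with UNC0642 (log2 fold change -0.17, SE 0.11, adjusted p 0.865), with overlap between the groups. None of the 13 TGF-beta pathway genes and none of the 17 MHC class I and peptide loading genes passed the threshold or reached an unadjusted p under 0.05, with medians of -0.10 and 0.048. Without UNC0642 replicate 1 these medians were -0.033 and 0.018, with 1 TGF-beta pathway gene higher at an unadjusted p under 0.05. Of the 17 TGF-beta response genes, 0 passed with or without UNC0642 replicate 1 (medians -0.041 and -0.094), and TGFBI, a secreted matrix protein, had the largest difference, at 0.0183, 0.0237 and 0.115 CPM with DMSO and 1.84, 0.483 and 0.761 CPM with UNC0642 (log2 fold change 4.23, SE 1.02, adjusted p 0.347). The chemokines CXCL5, CCL15, CXCL10, CCL27 and CXCL8 were all under the filter, CXCL10 at 0 in all 6 libraries and CXCL8 at 0.53 CPM at most. Of the 33 interferon-stimulated genes tested, 0 passed the threshold and 1 was higher at an unadjusted p under 0.05 (median -0.034), and without UNC0642 replicate 1 these were 0 and 2 of 35 (median 0.015).

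Genes of the pigment programme had positive log2 fold changes in 14 of 18 cases. Of these 18 melanocyte genes tested, 1 was past the threshold, TYR, and 9 were higher and 0 lower at an unadjusted p under 0.05, against 3.75% and 2.20% of all genes tested. In the same 9 genes all UNC0642 libraries were above all DMSO libraries, which was so for 7.49% of all genes tested. TYR, tyrosinase, the first enzyme of melanin synthesis, was read at 222, 244 and 239 CPM with DMSO and 319, 342 and 327 CPM with UNC0642 (log2 fold change 0.49, SE 0.07, adjusted p 0.045). MLANA, the melanoma antigen MART-1, was read at 376, 401 and 411 CPM with DMSO and 489.8, 523 and 498 CPM with UNC0642 (log2 fold change 0.35, SE 0.07, adjusted p 0.142), and TRPM1, a cation channel of melanocytes, at 59.96, 57.2 and 55.3 CPM with DMSO and 90.5, 77.1 and 80.2 CPM with UNC0642 (log2 fold change 0.52, SE 0.09, adjusted p 0.104). DCT, dopachrome tautomerase, was low and was read at 2.59, 1.21 and 1.38 CPM with DMSO and 9.45, 4.18 and 5.2 CPM with UNC0642 (log2 fold change 1.85, SE 0.43, adjusted p 0.323). PMEL, the fibril protein of melanosomes, had a log2 fold change of 0.24 and EDNRB, the endothelin receptor B, of 0.40 (adjusted p 0.404 and 0.207). The regulator MITF (-0.04, adjusted p 0.933) and TYRP1 (0.003, adjusted p 0.994), the most abundant of the list, overlapped between the groups. The list's median was 0.26, and 0.24 without UNC0642 replicate 1, where 11 were higher at an unadjusted p under 0.05 (4.67% of all genes tested there) but 0 passed the threshold (TYR, adjusted p 0.059). By library the median differences from the DMSO mean were 0.174, 0.277 and 0.205 with UNC0642, and -0.038, 0.00508 and 0.0157 with DMSO. The list's median coding adenine content, 25.3%, was close to that of all genes. Its median in MP41 was 0.056. TBX2 and MFSD12, which are known from melanocytes too and fell past the threshold (-0.54 and -0.47), are not on this list.

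Stress response genes lay for the most part below 0 on the log2 scale. ATF4 is the transcription factor that induces amino acid synthesis and import genes when the integrated stress response is active. Of 27 of its target genes tested, 0 passed the threshold. At an unadjusted p under 0.05, 10 were lower and 0 higher, against 2.20% and 3.75% of all genes tested. In 11 all UNC0642 libraries were below all DMSO libraries, against 8.06% of all genes tested. CHAC1, which degrades glutathione, was read at 19.1, 22.4 and 25.7 CPM with DMSO and 2.65, 7.49 and 6.67 CPM with UNC0642 (log2 fold change -1.96, SE 0.33, adjusted p 0.0964). DDIT4, an inhibitor of mTORC1 signalling, was read at 19.8, 21.2 and 23 CPM with DMSO and 12.5, 8.48 and 8.77 CPM with UNC0642 (log2 fold change -1.12, SE 0.17, adjusted p 0.0689), and ASNS, asparagine synthetase, at 30.9, 30.7 and 31.3 CPM with DMSO and 16.7, 22.2 and 18.7 CPM with UNC0642 (log2 fold change -0.69, SE 0.13, adjusted p 0.124). SESN2 had a log2 fold change of -0.60 and SLC7A11, the cystine importer, of -0.87 (adjusted p 0.218 and 0.341). The list's median was -0.24. With UNC0642 replicate 1 left out, it was -0.28, 15 were lower at an unadjusted p under 0.05 (3.45% of all genes tested there), and CHAC1 and DDIT4 passed the threshold (adjusted p 0.0111 and 0.00906). In MP41 the list's median was -0.19.

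Of 19 ER chaperone and unfolded protein response genes, 0 passed the threshold and 7 were lower and 0 higher at an unadjusted p under 0.05, against 2.20% and 3.75% of all genes tested, with a median of -0.16. Without UNC0642 replicate 1 0 passed and 8 were lower, with a median of -0.18. HERPUD1, a component of ER-associated degradation, was read at 40.5, 41.2 and 43.3 CPM with DMSO and 28.9, 29.2 and 26.8 CPM with UNC0642 (log2 fold change -0.56, SE 0.09, adjusted p 0.0812). XBP1, a transcription factor of the unfolded protein response, was read at 96.3, 94.5 and 95 CPM with DMSO and 76.8, 69.2 and 68.2 CPM with UNC0642 (log2 fold change -0.42, SE 0.08, adjusted p 0.142), PDIA4, a protein disulfide isomerase, at 327, 328 and 334 CPM with DMSO and 266, 255 and 255 CPM with UNC0642 (log2 fold change -0.35, SE 0.06, adjusted p 0.104). In these 3 the groups did not overlap, and in 9 of the 19 (47.4%) all UNC0642 libraries were below all DMSO libraries, against 8.06% of all genes tested. Of 15 NRF2 antioxidant genes, OSGIN1 passed the threshold and 7 in all were lower at an unadjusted p under 0.05 (2.20% of all genes tested), with 0 higher and a median of -0.16. NQO1, a quinone reductase, had a log2 fold change of -0.35 and GCLM, the modifier subunit of glutathione synthesis, of -0.69 (adjusted p 0.195 and 0.288), and SLC7A11 is a member of this list as well. The NRF2 median without UNC0642 replicate 1 was -0.30, with 7 again lower, and OSGIN1 was no longer past the threshold (adjusted p 0.0501), and in MP41 it was -0.0066.

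**Figure D3:**
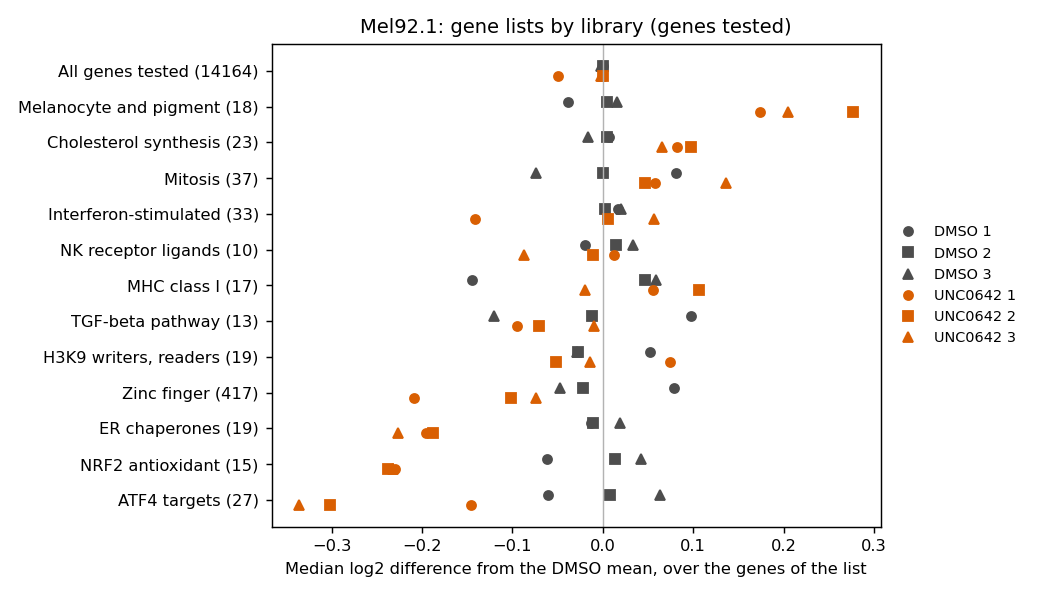
Median log2 difference from the DMSO mean for 12 gene lists and all tested genes in each Mel92.1 library (grey, DMSO; orange, UNC0642; the number of genes tested is in brackets). The melanocyte, ATF4, ER chaperone and NRF2 lists have their UNC0642 libraries apart from the DMSO libraries, at 0.174 to 0.277, -0.336 to -0.146, -0.227 to -0.188 and -0.238 to -0.230. So do the cholesterol and zinc finger lists, at 0.0652 to 0.0976 and -0.209 to -0.0743, against -0.0165 to 0.00673 and -0.0475 to 0.0786 with DMSO. The mitosis, interferon, NK ligand, MHC class I, TGF-beta and H3K9 lists overlap.

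Of 37 mitosis genes, MKI67, CENPF and SMC4 were higher past the threshold, as were 0.254% of all genes tested, and all 3 were among the 5% of genes richest in adenine. At an unadjusted p under 0.05, 7 of the 37 were higher and 0 lower, against 3.75% and 2.20% of all genes tested, and in 9 (24.3%) all UNC0642 libraries were above all DMSO libraries, against 7.49%. The list's median was 0.058. With UNC0642 replicate 1 left out, 3 passed, 10 were higher at an unadjusted p under 0.05 and the median was 0.082. The 40 DNA replication genes had 0 calls and a median of -0.065, and the 24 tested genes of G1 and the p53 response 0 calls and a median of -0.035 (0 calls, -0.059 and -0.031 without UNC0642 replicate 1). In the 12 tested genes of the uveal melanoma class 1 and class 2 expression test and PRAME, 0 passed the threshold. HTR2B, a serotonin receptor, was read at 26.3, 26.5 and 25.7 CPM with DMSO and 5.78, 12.9 and 13 CPM with UNC0642 (log2 fold change -1.29, SE 0.27, adjusted p 0.213). ECM1, a secreted matrix protein, went the other way, at 4.05, 5.56 and 4.64 CPM with DMSO and 7.08, 12.2 and 8.41 CPM with UNC0642 (log2 fold change 0.96, SE 0.25, adjusted p 0.404). HTR2B was past the threshold without UNC0642 replicate 1 (-1.01, adjusted p 0.00906). Of the 17 YAP and TEAD target genes 0 passed with or without UNC0642 replicate 1 (medians -0.24 and -0.16), and AJUBA, a LIM protein, stood at 30.3 ± 0.86 CPM with DMSO and 19.6 ± 2.09 CPM with UNC0642 (log2 fold change -0.63, SE 0.11, adjusted p 0.123).

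Of 23 cholesterol synthesis genes, 0 passed. At an unadjusted p under 0.05, 2 were higher, INSIG1 (0.32) and MSMO1 (0.28), against 3.75% of all genes tested. Their list had a median of 0.12 (-0.094 with library size as the only scaling, and 0.068 with 2 higher without UNC0642 replicate 1). The 417 zinc finger genes had 0 calls, 6 higher and 19 lower at an unadjusted p under 0.05 (3.75% and 2.20% of all genes tested), and a median of -0.13. Without UNC0642 replicate 1 0 of 422 passed, 11 were higher and 54 lower at an unadjusted p under 0.05 (4.67% and 3.45% of all genes tested there), and the median was -0.11. In 75 of them all UNC0642 libraries were below all DMSO libraries, which is 18% beside 8.06% of all genes tested. The 79 ribosomal protein genes had 0 calls and a median of 0.18 (-0.039 with library size as the only scaling). At an unadjusted p under 0.05, 15 were higher and 0 lower, against 3.75% and 2.20% of all genes tested. With UNC0642 replicate 1 left out, 4 were higher and 0 lower (4.67% and 3.45% of all genes tested there), and the median was 0.12. By library their medians were -0.223, 0.0676 and 0.161 with DMSO and 0.255, 0.207 and 0.0523 with UNC0642, and the groups overlapped. The 24 collagen genes (7 lower at an unadjusted p under 0.05, median -0.24) and 37 clustered protocadherin genes (5 lower, median -0.33) had 0 calls. Among all genes tested, 2.20% were lower at an unadjusted p under 0.05. Without UNC0642 replicate 1 the collagen genes had 4 lower and 1 higher (median -0.17) and 38 protocadherin genes 11 lower (median -0.24), also with 0 calls. All genes tested there had 3.45% lower and 4.67% higher. Of the markers of other cells, none of 12 lymphocyte and myeloid markers was tested, at a sum of at most 0.552 CPM in any library. The 6 epithelial markers summed to at most 1.04 CPM, with 1 tested and 0 calls. The 9 fibroblast and endothelial markers summed to 28.6 to 29.6 CPM with DMSO and 24.2 to 27.5 CPM with UNC0642, with 3 tested and 0 calls, and nearly all of it was LUM, the matrix proteoglycan lumican, at 27.6, 28.1 and 28.3 CPM with DMSO and 24.2, 26.5 and 26.5 CPM with UNC0642 (log2 fold change -0.12, SE 0.10, adjusted p 0.867). COL1A2, COL3A1, CDH5 and TEK of this list were at 0 in all 6 libraries.

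The response was compared with that of MP41 in 1 fit of 12 libraries, where a positive difference means a higher log2 change in Mel92.1. Of 15464 genes, 57 (0.369%) had a different response by the edgeR interaction test at the same threshold, and in 49 (0.317%) the change was higher in Mel92.1. In MP41 itself 1 gene (0.00647%) was past the threshold in this fit. The 57 held 33 of the 36 genes that rose in Mel92.1 and 2 of the 6 that fell. Both tests used the same 6 Mel92.1 libraries, so this overlap is no independent evidence. ZC3H13 was read at 981 to 1042 CPM in MP41 with DMSO and at 965 to 1026 CPM with UNC0642 (difference 1.95, adjusted p 1.69e-07). MKI67 also overlapped between the groups of MP41 (difference 2.40, adjusted p 0.000123). NOX5 was higher with UNC0642 in both lines, with a log2 fold change of 0.86 in MP41 (difference 2.37, adjusted p 0.000739). For SLAMF7 the difference was 0.35 (adjusted p 0.88), with a log2 fold change of 0.71 in MP41. SLAMF7 was low in MP41 and its groups overlapped there. The readings were 0.882, 0.74 and 0.648 CPM with DMSO and 0.73, 1.1 and 1.91 CPM with UNC0642.

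The largest differences with a lower change in Mel92.1 were found for 5 genes. DDIT4 fell short of the threshold in Mel92.1 alone but differed between the lines (-1.14, adjusted p 0.00794), with 0.0082 in MP41. OLFML2A differed by -1.20 (adjusted p 0.0249) and CD36, a fatty acid receptor, by -1.07 (adjusted p 0.0178). CYBRD1, a ferric reductase, and BDH1, a ketone body enzyme, were at 0 in all MP41 DMSO libraries and at 0.165 to 0.456 CPM and 0.0885 to 0.104 CPM with UNC0642 there, while they overlapped between the groups of Mel92.1 (-0.038 and -0.16). Their differences in response therefore rest on MP41. A higher change in Mel92.1 was also found for HTN1, a salivary histatin, at 1.64, 1.64 and 1.95 CPM with DMSO and 14.6, 6.85 and 6.32 CPM with UNC0642 (log2 fold change 2.40, SE 0.36, adjusted p 0.0578; difference 1.85, adjusted p 0.0384), and PHGDH, the first enzyme of serine synthesis, at 0.183, 0.095 and 0.138 CPM with DMSO and 0.702, 0.299 and 0.646 CPM with UNC0642 (log2 fold change 1.94, SE 0.77, adjusted p 0.792; difference 2.02, adjusted p 0.0238). PHGDH stood at 125 CPM in MP41 with DMSO. If the line check is read as a share of MP41 RNA, it would amount to 0.54, 0.065 and 0.117 CPM of PHGDH in UNC0642 replicates 1 to 3.

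**Figure D4:**
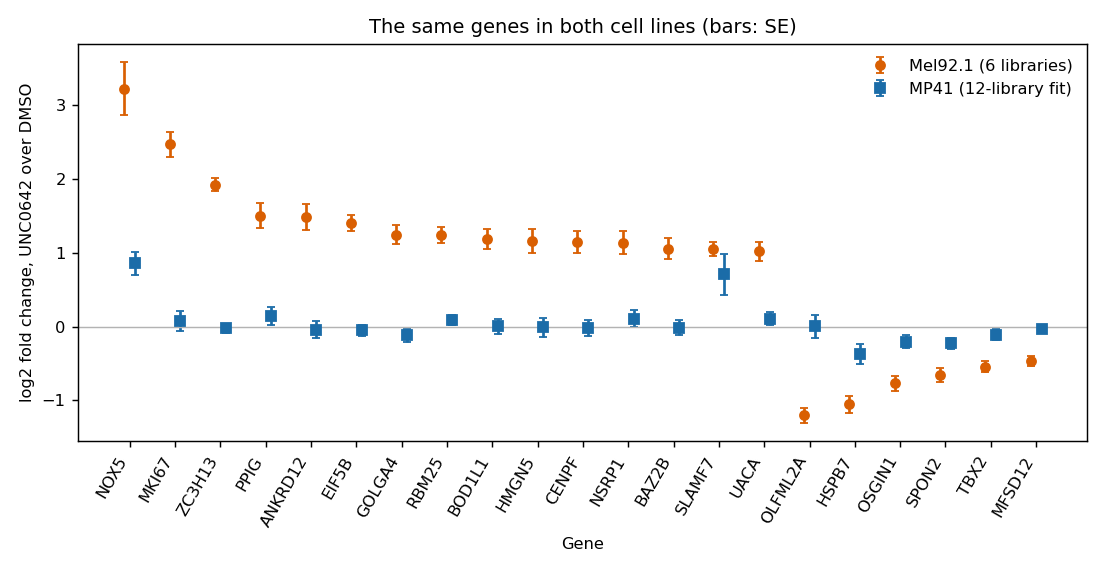
Log2 fold change of UNC0642 over DMSO with its SE for the 15 largest rises and the 6 falls of Mel92.1 (orange circles, 6 libraries) and the same genes in MP41 (blue squares, 12-library fit). NOX5 (0.86) and SLAMF7 (0.71) have the highest values in MP41, and the other 13 rises lie between -0.12 and 0.14 there. The SLAMF7 readings overlapped between the groups of MP41.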

How the data were processed

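RNA-seq of 6 Mel92.1 libraries (3 with DMSO, 3 with UNC0642) was analysed, with 6 MP41 libraries for the line difference. The authors deposited expected counts per gene for 18 libraries, and 0 columns were of unknown samples. The submitters' processing notes name Bowtie2 2.1.0, RSEM 1.2.15 and hg38, while the paper's methods describe the mouse build mm10 and FPKM, which the table does not hold. The labels describe poly(A) selection and strand-specific libraries with random primers, and the series text removal of ribosomal RNA; the use of strand in counting is not given in the sources used here. The libraries are described as biological replicates, without saying whether cultures were separate.

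Expected counts were rounded to whole numbers. Genes were filtered with filterByExpr, scaled with TMM factors and tested with edgeR 4.0.16 (glmQLFit, glmQLFTest) in R 4.3.3, and p-values were adjusted by Benjamini-Hochberg over the whole set tested, at a threshold of 0.05. A standard error is the log2 fold change divided by the square root of the F statistic. The difference between lines was an interaction term over 12 libraries. Log2 differences of single libraries used CPM + 0.5. Total counts were 23601156 to 62941462 per library, so that the shallowest library limits genes of few counts. Levels of different genes are not per length, so a gene called abundant or low is so by CPM alone.

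The samples, the 44 gene lists and the tests were chosen with earlier results of these data known, and lists were described by counts and medians, with no test. Genes were named by a rule: the 15 largest rises and falls past the threshold at 1 CPM or more without overlap, the 8 genes of the study, EHMT1, EHMT2, TGFB1, the NKG2D ligands and 5 chemokines, the called members of each list or else those with the largest change, and the 5 largest line differences in either direction. Some uncalled list members given by the rule are not described. Among them are ATF3 of the ATF4 list (log2 fold change -1.20) and TM7SF2 of the cholesterol list (-0.33). Further list members at an unadjusted p under 0.05, the genes with a role in the text beyond these, MITF and TYRP1 were chosen after their values were seen. Coding sequences (the longest per gene, from GENCODE 29, GRCh38) were matched by symbol for 12862 of 14164 genes tested. The alternatives were other scalings (RLE, library size, ribosomal RNA genes left out), other filters, DESeq2 1.42.0, limma 3.58.1 with voom sample weights or on log2(CPM + 1), a replicate block, other sets of libraries, other thresholds and each library left out. A fit of 12 libraries and an offset for adenine content and coding length were added after seeing the data. The tests were checked on simulated counts.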

Additional observations from a re-analysis of the deposited data

Results flagged for a closer look

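Of the 57 genes whose response differed between the lines (edgeR interaction term, Benjamini-Hochberg adjusted p under 0.05), 29 are named in the report. In 23 of them the change was higher in Mel92.1, and in log2 units the differences were 2.40 for MKI67, 2.37 for NOX5, 2.02 for PHGDH, 1.95 for ZC3H13, 1.85 for HTN1, 1.52 for ANKRD12, 1.46 for EIF5B, 1.37 for GOLGA4, 1.36 for PPIG, 1.18 for BOD1L1, 1.17 for each of RBM25, HMGN5 and CENPF, 1.07 for BAZ2B, 1.04 for NSRP1 and PRRC2C, 0.92 for UACA and LUC7L3, 0.91 for ATRX, 0.75 for CTSL, 0.55 for SMC4 and IDH1, and 0.53 for HSP90AA1. In 6 the change was lower in Mel92.1, by -0.43 for MFSD12, -1.07 for CD36, -1.14 for DDIT4, -1.20 for OLFML2A, -5.22 for BDH1 and -6.56 for CYBRD1. The values of BDH1 and CYBRD1 come from MP41 DMSO libraries with no count, so they depend on the prior count of the fit and are no measure of size.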

How the results depend on the processing

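Of 600 pairs of a called gene of the text (30 genes) and an alternative, all kept the direction and 364 also the call. The number of calls in Mel92.1 (42) stayed within 1.5 times with RLE factors, ribosomal RNA genes left out, either filter, limma on log2(CPM + 1), the fold threshold on adjusted p, and 7 libraries. It was 4 with library size as the only scaling, 205 with DESeq2, 380 with voom weights, 232 at an unadjusted p with a fold change of at least 1.5, 209 in the 12-library fit, 7 with the offset for adenine content and coding length and 0 with 9 libraries that include A366 as labelled (283 at an unadjusted p under 0.05 by edgeR). All 42 genes were called by DESeq2, voom and the 12-library fit. Leaving out 1 library gave 2 to 47 calls. The line difference (57 calls) gave 185 with DESeq2, 266 with voom weights and, leaving out 1 library, 32 (without MP41 DMSO replicate 3 or MP41 UNC0642 replicate 1) to 100 (without Mel92.1 UNC0642 replicate 1), with 33 without MP41 DMSO replicate 1 and 87 without Mel92.1 DMSO replicate 1.

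The replicate numbers did not pair the samples: the deviations of same-numbered libraries from their group means correlated at -0.11, 0.015 and -0.16. With the replicate block, 1 gene was called in Mel92.1 and 26 differed between the lines.

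Directions that turned were of genes far from the threshold. With library size as the only scaling, MICA was at -0.198, ULBP2 at -0.0512 and TYRP1 at -0.213; with voom weights, MICA was at -0.071 and MITF at 0.0177; with the offset, EHMT1 was at 0.189, CYBRD1 at 0.0575 and MITF at 0.0797. TYRP1 was at -0.00519 with no filter and -0.000341 with 7 libraries. Leaving out 1 library at a time spanned 0 for EHMT1 (-0.107 to 0.0487), MICA (-0.0526 to 0.0742), CYBRD1 (-0.175 to 0.057), TYRP1 (-0.0362 to 0.0355) and MITF (-0.0955 to 0.0201). The cause was not tested. The low total of UNC0642 replicate 1 limits genes of few counts most, and 1285 tested genes had no count there.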
